A study of Mus musculus and Homo sapiens with 10 samples.

Results

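The zinc-finger gene clusters of human chromosome 19 were examined in K562, a human erythroleukaemia line taken at passage 14. Chromatin was cut with micrococcal nuclease and immunoprecipitated for acetylation of a lysine in the globular domain of histone H3 (H3K122ac), for H3K27ac or for H3K4me1, with 1 library per mark, beside an input library. The deposited lists set each mark against a background library, and neither labels nor lists say which library that was. The members were all called islands (stretches of enriched windows) of these 3 lists that overlap chr19:20000000-24600000, chr19:52400000-53900000 or chr19:56500000-59000000 (hg19), chosen by position alone. They numbered 175 of 72662 H3K122ac islands, 283 of 173981 H3K27ac islands and 231 of 113669 H3K4me1 islands, 689 in all. They were set against the 2641, 5477 and 3855 islands of the same lists elsewhere on chromosome 19. The series also holds mouse embryonic stem cell libraries, which were not used here. With 1 list per mark no test over replicates was possible: all values describe these lists, intervals cover counting error only, and neighbouring islands are not independent.

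Genes of the KRAB zinc-finger family encode DNA-binding repressors that recruit TRIM28 (KAP1) and the histone methyltransferase SETDB1, and many of them silence transposable elements. They arose by tandem duplication and lie in long arrays, many of them on human chromosome 19, where the 3' parts of the genes commonly carry the repressive mark H3K9me3. H3K27ac marks active promoters and enhancers, H3K4me1 is typical of enhancers and of the flanks of active promoters, and K122 lies in the globular domain of the histone, where it contacts DNA near the nucleosome dyad. No annotation of hg19 was used, so islands are given by position and not by gene, and no sequence is printed. Whether the windows hold zinc-finger genes was therefore not checked here. The rest of chromosome 19 also holds zinc-finger clusters, so the comparison is not one of zinc-finger genes against all others.

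The windows were poor in all 3 marks. H3K122ac islands covered 4.23% of the 8.6 Mb in the windows, against 14.6% of the 46.9 Mb of the rest of the chromosome, a log2 ratio of -1.79. H3K27ac covered 5.47% in the windows and 18.3% in the rest, and H3K4me1 6.38% in the windows and 22.8% in the rest, log2 ratios of -1.75 and -1.84. Islands were fewer and, for H3K122ac and H3K4me1 over the windows together, also shorter. There were 20.3 H3K122ac islands per Mb in the windows and 56.3 in the rest, with median lengths of 1800 and 2000 bp and 90th percentiles of 3400 and 5200 bp. For H3K27ac the densities were 32.9 per Mb in the windows and 116.8 in the rest, and for H3K4me1 26.9 per Mb in the windows and 82.2 in the rest. H3K4me1 islands had median lengths of 1800 and 2000 bp in the same order, with 90th percentiles of 5000 and 5400 bp. Those of H3K27ac had medians of 1400 and 1200 bp. By window the H3K4me1 median lengths were 1600, 1600 and 2200 bp, so that of the third window lay above the rest.

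The first window, which lies next to the centromere, was the emptiest. H3K122ac covered 2.66% of it, H3K27ac 3.08% and H3K4me1 2.76%. In the second window the covered shares were 5.57% for H3K122ac, 8.19% for H3K27ac and 8.83% for H3K4me1, and in the third window they were 6.33%, 8.22% and 11.6% in the same order of marks. Without the first window the log2 ratios to the rest were -1.27, -1.16 and -1.11, so each mark remained sparser in the other windows too. Against only those 100-kb bins of the rest that held at most 6 H3K122ac islands, the log2 ratios were -0.72 for H3K122ac, -0.99 for H3K27ac and -1.03 for H3K4me1. Picking bins by their H3K122ac count lowers the coverage of the rest by itself, to 6.96% for H3K122ac. The windows were not filtered alike, so neither the size of these ratios nor their order among marks is interpreted.

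Long stretches of the first and of the third window held no island of any mark. Of the 86 bins of 100 kb in the windows 28, or 32.6%, held no island, against 23 of 469 bins, or 4.90%, in the rest. In the first window it was 21 of 46 bins, in the third 7 of 25, and in the second none of 15, although its coverage was also below that of the rest. The longest island-free stretch inside a window was chr19:22236801-23257600 in the first, of 1020.8 kb, followed by chr19:56917601-57702200 in the third, of 784.6 kb. The longest elsewhere on the chromosome was chr19:43139801-43809800, of 670.0 kb, once the run of empty bins that borders the first window had been left out. In the second window no stretch exceeded 90.4 kb. A stretch of 4003.6 kb, chr19:24278201-28281800, crosses the upper edge of the first window and spans the centromere. Reads outside islands were not analysed here.

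**Figure D1:**
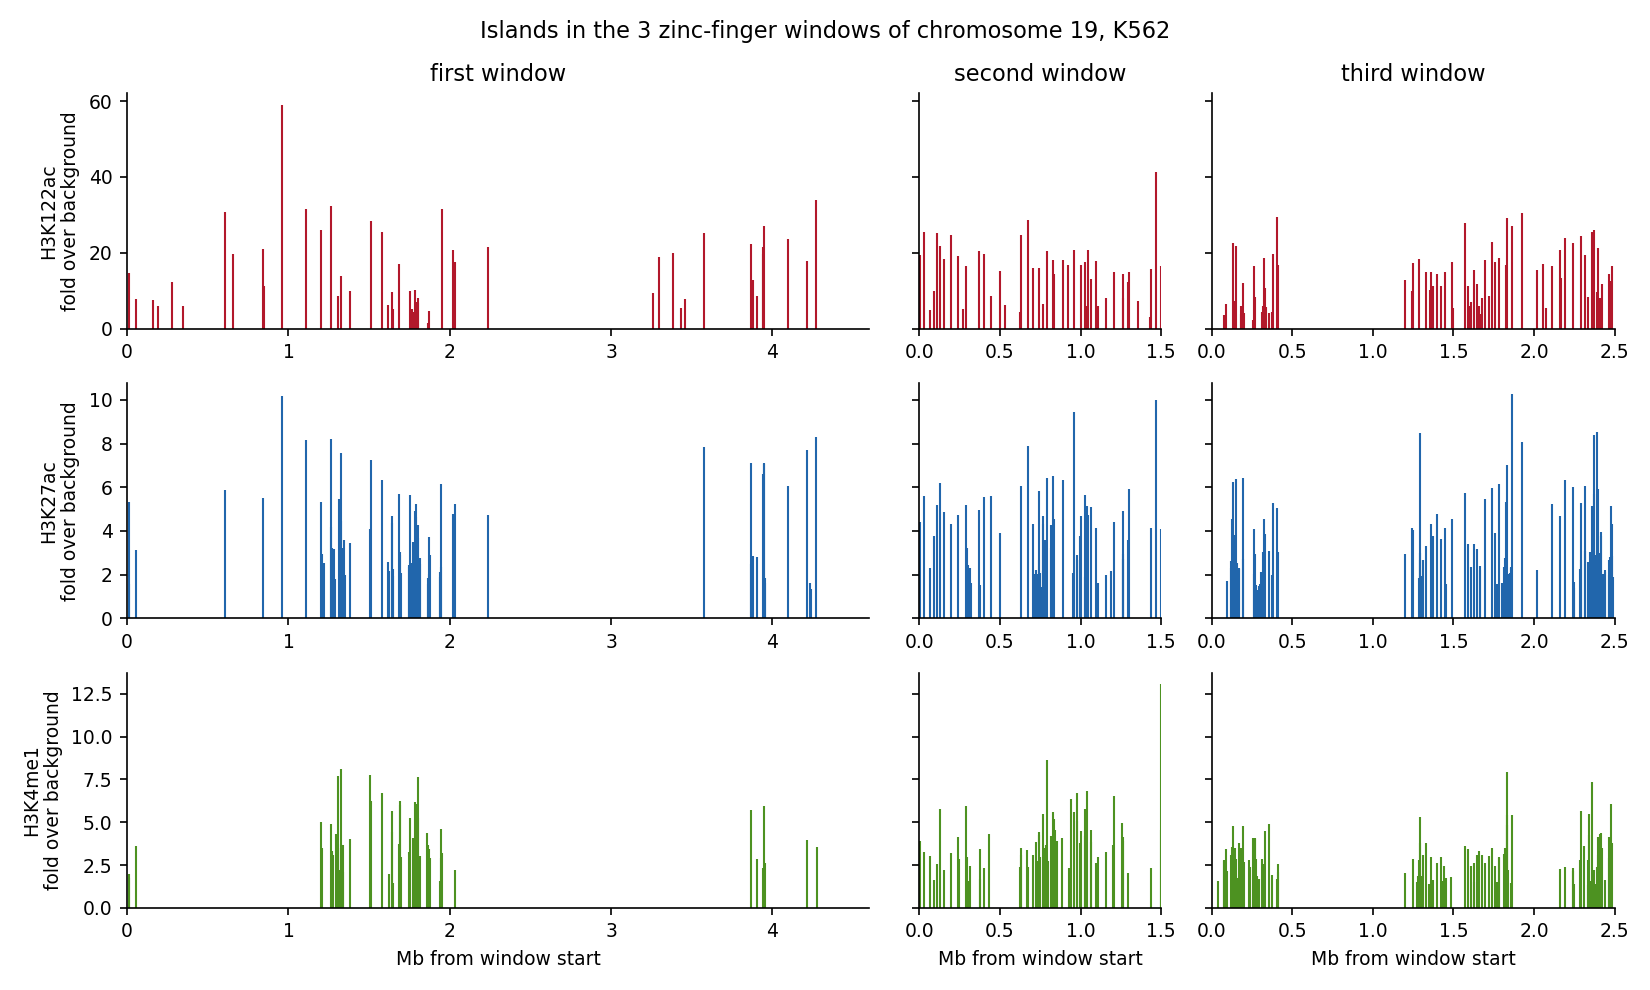
Fold over background of every H3K122ac (top), H3K27ac (middle) and H3K4me1 (bottom) island in each window, against distance from the start of the window in Mb. Stretches of 1020.8 kb in the first window and of 784.6 kb in the third hold no island of any mark. For H3K27ac and H3K4me1 taken singly, the empty stretch of the first window is longer. H3K122ac and H3K27ac reach high folds at places in the first window where no H3K4me1 island was called.

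The H3K122ac islands that were present in the windows were strongly enriched. Their median fold over background, as the authors' caller gave it, was 14.8 (order-statistic 95% interval 12.3 to 16.5), against 7.06 (6.84 to 7.41) in the rest of the chromosome, a log2 ratio of 1.07. From the lowest to the highest, folds ran from 1.59 to 59.0 in the windows and from 1.33 to 44.5 in the rest. A fold of 3 or more was reached by 171 of 175 islands in the windows, where 87.1% of the islands of the rest and 77.6% of the whole list reached it. The medians were 13.3 in the first window, 16.3 in the second window and 12.9 in the third window, with overlapping intervals. The top 10% of the list by fold, among islands with at least 10 background reads, began at a fold of 14.8. It took in 86 of 173 islands of the windows, or 49.7% (Wilson 95% interval 42.3 to 57.1%), where it took in 14.6% of the rest and, by construction, 10% of the list.

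The other marks differed less. H3K27ac had a median fold of 3.02 (2.82 to 3.44) in the windows and 2.53 (2.49 to 2.57) in the rest, a log2 ratio of 0.26. A fold of 3 or more was reached by 143 of 283 H3K27ac islands of the windows, where 36.6% of those of the rest and 27.9% of the list reached it. H3K4me1 had a median fold of 3.28 (3.03 to 3.51) in the windows and 2.99 (2.95 to 3.05) in the rest, a log2 ratio of 0.13. Of these, 132 of 231 islands of the windows had a fold of 3 or more, where 49.7% of the rest and 42.4% of the list did. The top 10% of the H3K27ac list held 77 of 279 islands of the windows, where it held 14.2% of those of the rest. The top 10% of the H3K4me1 list held 36 of 230, where it held 8.73% of those of the rest. In the third window it held 8 of 109 H3K4me1 islands, or 7.34%.

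**Figure D2:**
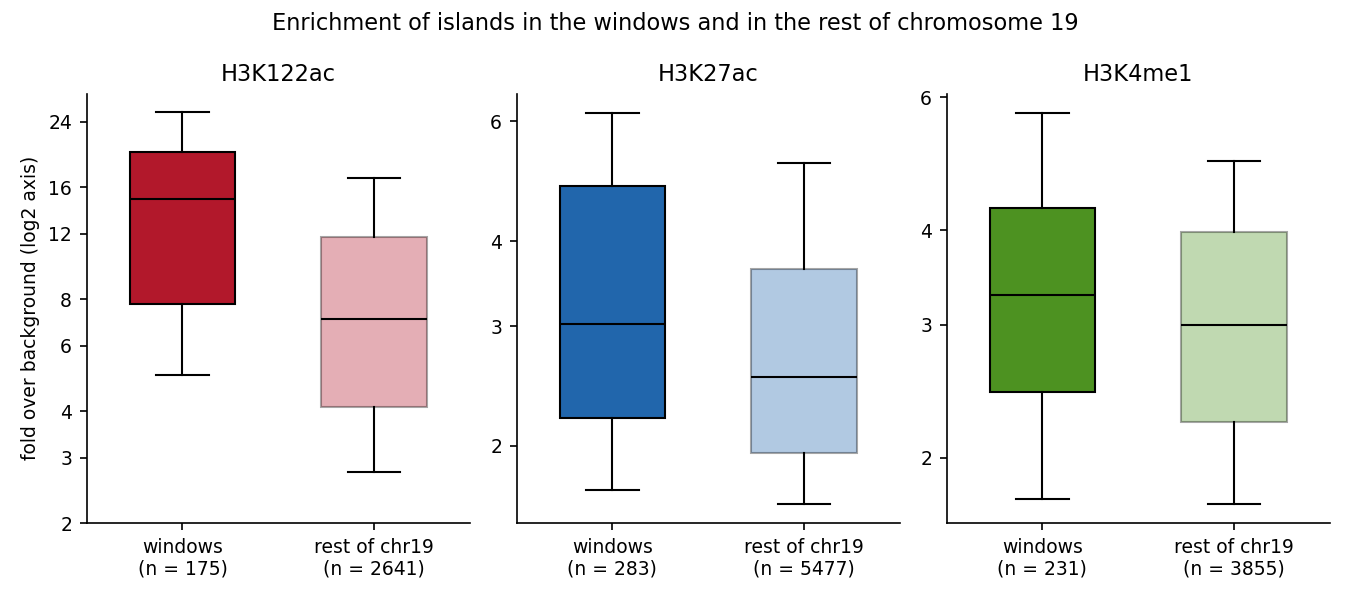
Fold over background of islands in the windows (left) and in the rest of chromosome 19 (right) for each mark, on a log2 axis; lines are medians, boxes the interquartile range and whiskers the 10th and 90th percentiles. Medians are 14.8 and 7.06 for H3K122ac, 3.02 and 2.53 for H3K27ac, and 3.28 and 2.99 for H3K4me1.

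Background reads moved with these folds. The median was 37.5 background reads per kb in H3K122ac islands of the windows and 47.4 in those of the rest, 46.1 and 52.9 in H3K27ac islands, and 42.4 and 47.9 in H3K4me1 islands. What sets the background count was not tested. Within each of 5 ranges of background density the H3K122ac median was higher in the windows. It was 17.8 in the windows and 10.9 in the rest at up to 30 background reads per kb, and 13.3 and 8.75 from 30 to 40. From 40 to 50 it was 14.7 in the windows and 7.56 in the rest, from 50 to 60 it was 14.8 and 6.38, and above 60 it was 8.18 and 4.20. The ChIP reads alone also differed, with a median of 116.1 H3K122ac reads per kb in islands of the windows and 81.6 in those of the rest. For H3K27ac the ChIP density was 90 reads per kb in the windows and 91.7 in the rest, and for H3K4me1 76.3 and 81.1. Among islands with 30 to 50 background reads per kb the log2 ratio of the median folds was 0.80 for H3K122ac, 0.06 for H3K27ac and -0.07 for H3K4me1, the last with its sign turned.

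**Figure D3:**
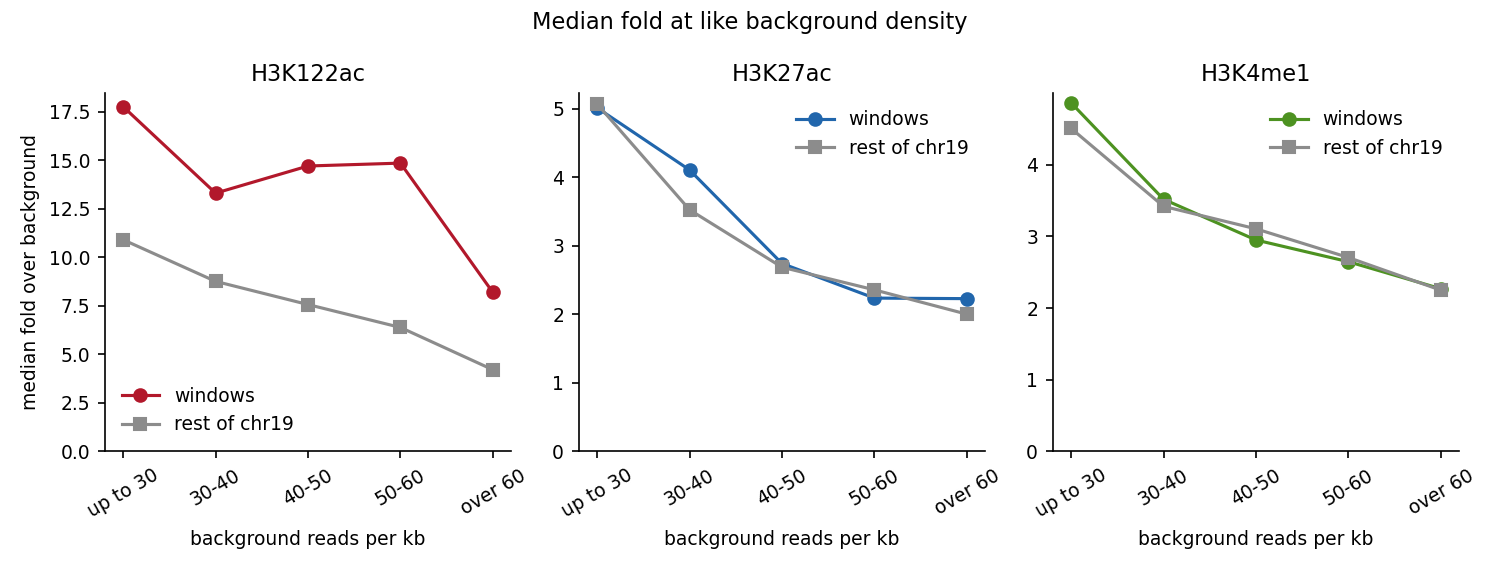
Median fold over background in 5 ranges of background reads per kb, for islands of the windows (circles) and of the rest of chromosome 19 (squares). The H3K122ac medians of the windows lie above those of the rest in all 5 ranges, from 17.8 against 10.9 to 8.18 against 4.20, while those of H3K27ac and H3K4me1 lie close together.

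The H3K122ac fold was also set beside the number of H3K122ac islands in the same bin. In the windows the median fold was 17.1 in bins with up to 3 islands, 14.4 in bins with 4 to 6 and 7.14 for the 23 islands of bins with more than 6. In the rest it was 6.98 in bins with up to 3 H3K122ac islands and 7.27 in bins with more than 10, and 6.90 from 7 to 10. These 23 islands came from only 3 bins, all in the third window. The H3K122ac island nearest to each edge had folds of 14.7, 33.9, 19.4, 16.5, 3.69 and 16.6 inside, from the lower edge of the first window to the upper edge of the third. The nearest island outside each edge had folds of 26.6, 23.9, 2.84, 19.4, 8.85 and 15.3 in the same order. The one with a fold of 23.9, chr19:28282201-28286000, lies beyond the island-free stretch of 4003.6 kb and is therefore no close neighbour of the upper edge of the first window. A single island crossed an edge, the H3K4me1 island chr19:53899001-53900400, with a fold of 4.55.

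In the first window the highest H3K122ac fold among islands with at least 100 reads and 10 background reads was 59.0 at chr19:20959001-20959800, from 183 reads over 12 background reads. The exact interval for the counting error of both counts ran from 33.0 to 116.4. It met an H3K27ac island with a fold of 10.2, and the nearest H3K4me1 island lay 244600 bp away. The next, chr19:24269201-24271000, had a fold of 33.9 (25.7 to 45.4) from 499 reads over 57, met H3K27ac at a fold of 8.30 and lay 4600 bp from the nearest H3K4me1 island. Both islands thus carried the acetylations without H3K4me1.

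In the second window under the same rule the highest H3K122ac folds were 41.4 (21.7 to 88.9) at chr19:53868801-53869400, from 107 reads over 10 background reads, and 28.7 (21.6 to 38.8) at chr19:53073001-53074400, from 408 reads over 55. The island at 53868801 was 600 bp long, met H3K27ac at a fold of 9.97 and lay 28400 bp from H3K4me1. The island at 53073001 met H3K27ac at a fold of 7.90 and a weak H3K4me1 island with a fold of 2.40. In the third window they were 30.4 (19.02 to 51.1) at chr19:58427401-58428400, from 157 reads over 20, and 29.5 (21.9 to 40.5) at chr19:56904201-56905400, from 381 reads over 50. The island at 58427401 lay 64200 bp from the nearest H3K4me1 island, and the island at 56904201 met one with a fold of 1.71. The 4 intervals of these islands overlap widely, so no order among them is read from the folds.

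The highest H3K27ac fold under the same rule was 10.3 (7.28 to 14.8) at chr19:58361201-58362600 in the third window, where H3K122ac reached 27.003 and H3K4me1 5.41. In the first window it was 8.30 at chr19:24269401-24271200, which overlaps the H3K122ac island at 24269201, and in the second 7.90 at chr19:53073401-53074800, which overlaps the one at 53073001. The highest H3K4me1 folds were 8.09 (5.12 to 13.3) at chr19:21325801-21327000 in the first window, 8.65 (6.98 to 10.8) at chr19:53194001-53196600 in the second and 6.05 (4.32 to 8.62) at chr19:58979401-58981000 in the third. All 3 met both acetylations, with H3K122ac folds of 13.8, 20.6 and 12.6.

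The longest H3K122ac islands of the second window, chr19:53192401-53196400 and chr19:52692001-52695400, spanned 4000 and 3400 bp with folds of 20.6 and 16.5, and each met H3K27ac and H3K4me1. In the third window the longest were chr19:58888001-58894000 and chr19:58911001-58915800, of 6000 and 4800 bp, with folds of 9.65 and 8.16. Long islands of weak signal also occurred: the H3K27ac island chr19:52704601-52711400, of 6800 bp, had a fold of 1.69 over 418 background reads and met neither other mark.

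The title of the study concerns enhancers found through acetylation of the globular domain, so H3K122ac was set beside the tail mark H3K27ac. Of the H3K122ac islands of the windows, 142 of 175, or 81.1% (74.7 to 86.2%), met an H3K27ac island by at least 1 bp, where 80.3% of those of the rest (78.8 to 81.8%) and 78.1% of the whole list did. The difference was 0.79 percentage points, with an interval of -5.81 to 6.13 that takes in both signs. That interval covers counting error only, and no test was made. The difference depended on the setting. It was 11.9 percentage points (4.36 to 18.6) when every list was held to a fold of 3 or more. The shares were 78.8% in the first window, 87.0% in the second and 79.2% in the third, with overlapping intervals. In the opposite direction 162 of 283 H3K27ac islands of the windows, or 57.2% (51.4 to 62.9%), met H3K122ac, where 52.7% of the rest and 41.9% of the whole list did. Against sparse bins of the rest alone, with at most 6 H3K122ac islands, the differences were 8.65 (1.56 to 14.7) and 17.7 (11.4 to 23.7) percentage points. These bins were picked for few H3K122ac islands, while the windows kept all of theirs. The comparison is therefore unequal, and no conclusion is drawn from it.

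H3K4me1 was met less often. In the windows 125 of 175 H3K122ac islands, or 71.4% (64.3 to 77.6%), met an H3K4me1 island, where 89.4% of those of the rest (88.1 to 90.5%) and 85.8% of the whole list did, a difference of -17.9 percentage points (-25.1 to -11.6). The share was lowest in the first window, at 25 of 52 islands or 48.1% (35.1 to 61.3%), and was 78.3% (64.4 to 87.7%) in the second and 83.1% (73.2 to 89.9%) in the third. Without the first window the difference was -8.06 percentage points (-15.9 to -2.03). Of the H3K4me1 islands of the windows, 145 of 231 met H3K122ac, or 62.8% (56.4 to 68.7%), where 67.1% of the rest and 54.2% of the whole list did. H3K27ac was met by 189 of them, or 81.8% (76.3 to 86.3%), where 72.8% of the rest and 70% of the whole list met it. H3K27ac islands met H3K4me1 in 215 of 283 cases in the windows, or 75.97% (70.7 to 80.6%), where 73.6% of the rest and 69.4% of the whole list did.

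**Figure D4:**
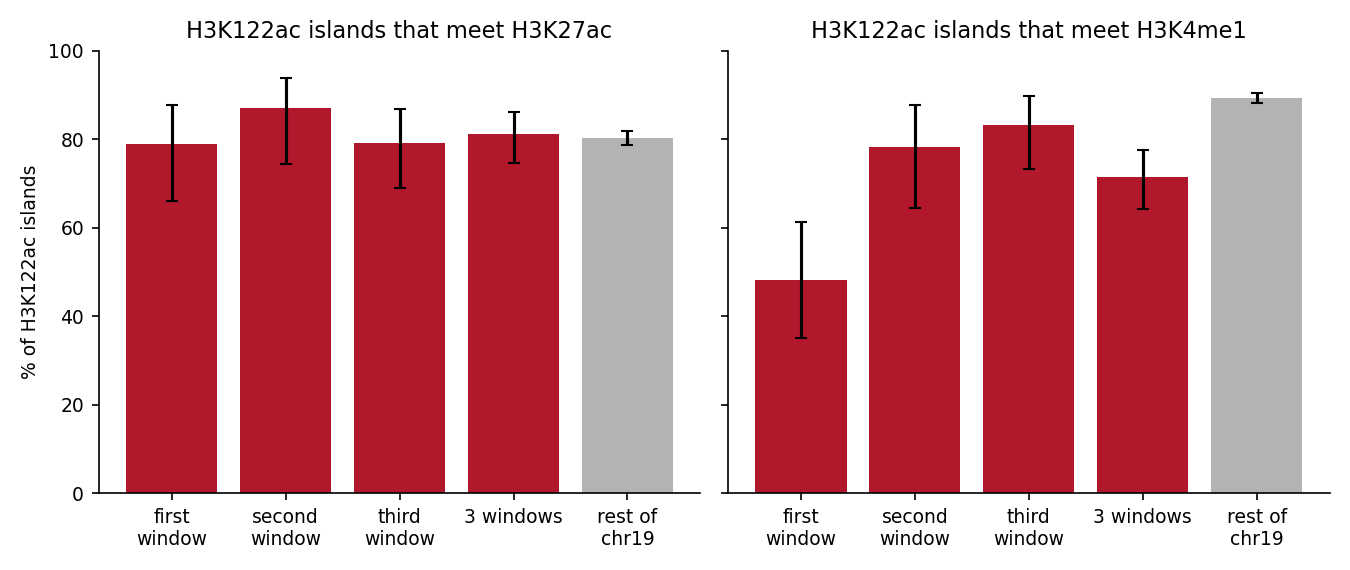
Share of H3K122ac islands that meet an H3K27ac island (left) or an H3K4me1 island (right) in each window, in the 3 windows together and in the rest of chromosome 19; error bars are Wilson 95% intervals. H3K27ac is met by 81.1% in the windows and 80.3% in the rest, while H3K4me1 is met by 71.4% in the windows and 89.4% in the rest, with 48.1% in the first window, 78.3% in the second and 83.1% in the third.

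The 50 H3K122ac islands of the windows without H3K4me1 comprised 25 with H3K27ac and 25 with neither other mark. Among H3K122ac islands with H3K27ac, 25 of 142 in the windows, or 17.6%, had no H3K4me1, against 81 of 2122, or 3.82%, in the rest, a difference of 13.8 percentage points (8.33 to 20.9). By window it was 16 of 41 in the first, 5 of 40 in the second and 4 of 61 in the third, and without the first window the difference was 5.09 percentage points (0.84 to 12.3). Of the 25 islands, 16 lay over 5000 bp from the nearest H3K4me1 island and 10 over 50000 bp, against 22 and 2 of the 81 in the rest. Of those 10, 7 were in the first window. Other islands of the class lay close to H3K4me1, down to a distance of 0 bp in the first window. There chr19:21203001-21204400, with an H3K122ac fold of 26.1, ends directly before an H3K4me1 island. H3K4me1 islands were also sparser in the windows, where 52.3% of 100-kb bins held none, against 6.82% in the rest. Whether such distances are particular to this class was not tested.

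Taken over the windows together, these islands had the highest median H3K122ac fold of any class. Their median fold was 21.5, with a range of 1.59 to 59.0, at a median length of 1400 bp, against 5.55 at 1200 bp for the same class in the rest, a log2 ratio of 1.95. Background was lower in them, at 30 reads per kb in the windows and 43.3 in the rest. The log2 ratio was 1.37 (0.09 to 2.13) among islands with 30 to 50 background reads per kb. That interval leaves out the counting error of the rest and is too narrow. The ratio was 0.82 when at least 50% of an H3K122ac island had to be covered for a mark to count as present. The low median of the rest depended on the overlap of 1 bp: with 50% covered the medians were 21.7 in the windows and 12.3 in the rest, and at a fold of 3 or more in every list 18.7 and 12.25. The 117 islands that met both other marks reached 15.8 at a median length of 2000 bp in the windows, against 8.39 at 2400 bp for the 2041 of the rest. The order within the windows rested on the first window, where the medians were 24.5 without H3K4me1 and 9.94 with it. They were 15.2 without and 16.7 with it in the second window, and 16.02 and 14.98 in the third. Of the 25 islands of the first window with both marks, 11 lay in a stretch of broad islands described below. The H3K122ac islands of that stretch had a median fold of 6.65, so the 9.94 rests in part on it. The contrast of 24.5 and 9.94 was not recomputed without the stretch.

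H3K122ac islands without H3K27ac numbered 33 in the windows. Of these, 25 met neither other mark, 14.3% (9.87 to 20.2%) of all H3K122ac islands of the windows against 7.57% (6.62 to 8.64%) in the rest, and 8 met H3K4me1 alone, 4.57% (2.33 to 8.76%) against 12.1% (10.9 to 13.4%). In the whole list outside the windows 9.96% met neither other mark, which lies just inside the interval of the windows, and 11.9% met H3K4me1 alone. In the first window all 11 islands without H3K27ac also lacked H3K4me1. Among the 25 islands the median fold was 7.59 and the length 1000 bp, at 27.9 background reads per kb. The same class in the rest had a median fold of 4.64 at 40 background reads per kb. The 8 islands with H3K4me1 alone had a median fold of 4.27 in the windows, against 3.54 in the rest.

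No H3K27ac island lay within 5000 bp of 26 of the 175 H3K122ac islands of the windows, or 14.9%, against 10.98% in the rest. Both of the highest folds among them were in the first window and were short islands with few reads. At chr19:23386601-23387400 the fold was 19.95 (10.9 to 39.4), from 67 reads over 13 background reads, with H3K27ac 190400 bp and H3K4me1 480200 bp away. At chr19:20655801-20656800 it was 19.7 (10.2 to 41.7), from 56 reads over 11, with H3K27ac 48000 bp and H3K4me1 547600 bp away. These are also the highest among the islands with neither other mark.

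H3K27ac islands without H3K122ac had low folds in the windows. It was 2.28 at the median for the 82 that met H3K4me1 alone and 2.00 for the 39 that met neither mark, against 2.24 and 2.01 for these classes in the rest. H3K27ac islands with H3K122ac had a median fold of 4.36 where H3K4me1 was also met and 5.60 where it was not, against 3.36 and 2.65 in the rest. The share of H3K27ac islands with neither mark was lower in the windows, at 13.8% (10.2 to 18.3%) against 23.8% (22.6 to 24.9%). The share of H3K4me1 islands with neither acetylation was 13.4% (9.62 to 18.4%) in the windows and 18.0% (16.8 to 19.3%) in the rest.

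The first window also held a group of broad H3K122ac islands. All 6 of its H3K122ac islands over 4000 bp lay within chr19:21640401-21881200, a stretch of 240.8 kb. The stretch held 13 of the 52 H3K122ac islands of the window, 29 of the 86 H3K27ac islands and 20 of the 55 H3K4me1 islands. H3K122ac covered 23.4% of it, H3K27ac 24.8% and H3K4me1 23.6%, against 1.51%, 1.88% and 1.61% of the rest of the window, so it held 46.1%, 42.2% and 44.8% of all bases under islands of these marks in the window. The longest islands were chr19:21871601-21881200, of 9600 bp with an H3K122ac fold of 4.54, and chr19:21802801-21811400, of 8600 bp. At 21802801 H3K122ac had a fold of 6.65 from 548 reads over 319 background reads, and the H3K4me1 island of the same ends a fold of 5.24 from 970 reads.

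Enrichment in this stretch was unlike that of the rest of the window. H3K122ac had a median fold of 6.65 in it, with a range of 1.59 to 17.1, against 19.7 for the 39 other islands of the window, at 40 and 31.3 background reads per kb. The median H3K27ac fold was 2.81 in the stretch and 3.21 outside it, and the median H3K4me1 fold 4.39 in the stretch and 3.52 outside it. H3K4me1 was met by 11 of the 13 H3K122ac islands in the stretch, against 14 of the 39 outside it, and H3K27ac by 13 of 13 against 28 of 39. As the stretch was picked for its long islands, these values describe it and were not tested. Without it the median H3K122ac fold of the windows was 15.4 and the share of H3K122ac islands with H3K4me1 70.4%.

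**Figure D5:**
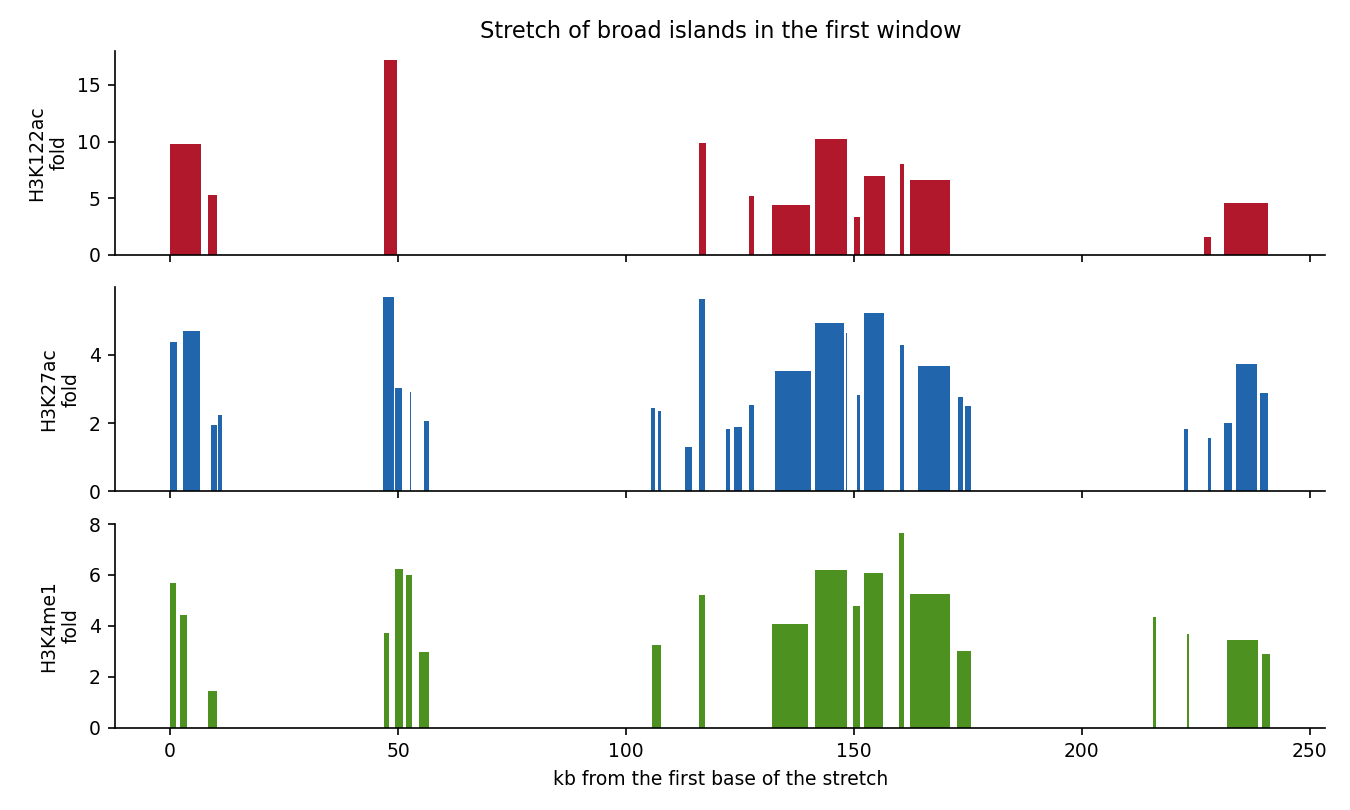
Fold over background (height) and extent (width) of the H3K122ac, H3K27ac and H3K4me1 islands in the stretch of broad islands of the first window, against distance in kb from its first base. The 13 H3K122ac islands have folds of 1.59 to 17.1, and all 13 meet H3K27ac, 11 of them H3K4me1 as well.

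Islands of over 4000 bp were otherwise few. They made up 10 of 175 H3K122ac islands in the windows, or 5.71%, against 15.9% in the rest, with none in the second window and 4 in the third. For H3K4me1 they made up 30 of 231, or 13.0%, against 17.1%, and for H3K27ac 14 of 283, or 4.95%, against 5.22%. Within the windows the 10 long H3K122ac islands had a median fold of 7.54 and the 87 of 1000 to 2000 bp had 16.03. Of these 10, 6 lay in the stretch of broad islands. The 45 of 2000 to 4000 bp had 16.6 and the 33 of up to 1000 bp had 8.20, so the fold did not simply fall with length. In the rest of the chromosome the 421 long islands had 9.62 and the 784 of 1000 to 2000 bp had 5.78. There it was 8.77 at 2000 to 4000 bp and 5.485 at up to 1000 bp. Where an H3K122ac and an H3K27ac island had identical ends, their background counts were equal, so the ratio of their folds needs no background. Of such pairs 8 lay in the windows, with a median log2 ratio of H3K122ac to H3K27ac fold of 1.99 and a range of 0.91 to 2.54, against 1.49 for 185 pairs of the rest, whose range was -0.25 to 3.04. By window the medians were 1.04, 2.05 and 2.10, from 3, 3 and 2 pairs, so that of the first window lay below the rest. For pairs of H3K122ac with H3K4me1 the median hardly differed, at 1.02 for 6 pairs in the windows and 0.95 for 165 in the rest.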

How the data were processed

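Per the submitters' processing notes, Bowtie 0.12.8, HOMER 4.3 and SICER 1.1 were used with hg19 for human samples, with no role stated for each. Per the names of the deposited lists, windows of 200 bp were used at a false discovery rate of 0.01, and the gap allowed was 600 bp, or 200 bp in the H3K27ac list. Each deposited list gives whole-number read counts of the ChIP and of a background library, whose identity is not stated, per island, not normalized by the authors, with a p-value and a q-value that the authors' caller gave. Dividing the 2 counts by each other and by a single library ratio returns the deposited fold; the ratio was recomputed as 0.258 for H3K122ac, 0.688 for H3K27ac and 0.581 for H3K4me1. Islands held 18283729, 34195325 and 35562145 reads in the same order. Folds were compared within a list, except for islands with identical ends.

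Positions are 1-based. The rest of chromosome 19 is every 100-kb bin outside the windows up to the last island, without a run of 36 bins that held no island of any list. Shares carry Wilson intervals, medians order-statistic intervals, and single folds exact binomial (Clopper-Pearson) intervals, at 95%. Intervals of log2 ratios hold the value of the rest fixed and so leave out its counting error. Named regions are, per window and mark, the 2 highest folds and the 2 longest islands, with at least 100 reads and 10 background reads; a selection of these is printed, with the islands at the edges and the 2 highest without H3K27ac. Members, rules and comparisons were chosen with earlier results of these data known. The overlap code was tested on simulated islands. Python 3.11.15, numpy 2.4.6, pandas 2.3.3 and scipy 1.17.1 were used.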

Additional observations from a re-analysis of the deposited data

How the results depend on the processing

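With 12 values and 11 planned and 4 added alternatives, 141 values were computed: 93 stayed within the interval of the reported value and the others lay outside it. In all, 7 turned sign. Of the alternatives, 4 were chosen after seeing the data (excess reads, 30 to 50 background reads per kb, sparse bins, and leaving out the broad stretch). Sparse bins were picked by their H3K122ac count and the windows were not filtered alike, so values against them are not like for like. The log2 ratio of the H3K4me1 median fold turned to -0.054 with excess reads per kb and -0.067 with 30 to 50 background reads per kb. The other 5 belong to differences whose reported interval includes 0. H3K122ac with H3K27ac was -1.28 percentage points without the second window and -0.72 without the broad stretch, H3K27ac with H3K122ac was -0.69 against 2 Mb on either side, and H3K4me1 with H3K122ac turned to 8.55 against the whole list and 6.13 against sparse bins, where the reported value is -4.29.

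Log2 ratios of covered shares (H3K122ac, H3K27ac, H3K4me1) were -1.27, -1.16 and -1.11 without the first window, -1.89, -1.91 and -1.96 without the second, and -2.11, -2.08 and -2.42 without the third. They were -2.05, -1.94 and -2.12 against 2 Mb on either side, -0.72, -0.99 and -1.03 against bins of at most 6 H3K122ac islands, and -1.66, -1.40 and -1.90 at a fold of 3 or more. H3K27ac gave -1.65 at a q-value of at most 1e-10 and -1.80 when joined across 600 bp.

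Log2 ratios of median folds were 1.48 for H3K122ac and 0.27 for H3K4me1 against the whole lists, 0.65 and 0.15 for H3K122ac and H3K27ac as excess reads, 0.058 for H3K27ac at 30 to 50 background reads per kb, 0.47 and 0.31 for H3K27ac and H3K4me1 without the third window, and 0.24 for H3K4me1 against sparse bins.

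The H3K122ac share with H3K27ac differed by 6.78 percentage points at the stricter q-value, 11.9 at a fold of 3 or more and 8.65 against sparse bins. The share with H3K4me1 differed by -8.06 without the first window and -27.1 without the third. H3K27ac with H3K122ac differed by 15.4 against the whole list and 17.7 against sparse bins. The lack of H3K4me1 at H3K27ac-positive islands differed by 23.99 with 50% covered, 25.6 at a fold of 3 or more, 5.09 without the first window and 22.1 without the third. The log2 fold of that class was 0.82, 1.31, 0.61, 1.37 and 1.34 with 50% covered, the stricter q-value, a fold of 3 or more, 30 to 50 background reads per kb, and sparse bins. The causes were not tested.

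No paired analysis was possible because each mark has 1 library. Leaving zinc-finger gene bins out of the rest was not run, as no hg19 annotation was used here.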
